A study of Mus musculus with 4 samples.

Results

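The genes described here are 35 genes of hypoxia and glycolysis, taken as a list of annotated symbols. The list was chosen with earlier results of these data known. The genes were followed in colon adenoma organoids of the mouse, which are 3D cultures of tumour epithelium. They cover the oxygen-sensing machinery, glucose and lactate transport, the glycolytic enzymes and the regulators of fuel use, and well-known targets of the hypoxia-inducible factor HIF. Of the 35 genes, 31 had a probe set that names them alone, out of 17097 genes with such a probe set, and each was read at the brightest of its probe sets on average. Gpi1, Eno1 and P4ha1 had no probe set with their symbol, and the Pgam1 probe set is shared with a second gene, so these 4 were not analysed here. Eno2, the neuronal enolase, read 3.49, 3.43, 3.44 and 4.14 log2 units and fell under the filter on dim genes, set at 4.45. The other 30 were tested among 11874 genes, and none of them was below 4.48 on any array, so no gene entered through 1 bright group alone.

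All cultures carried a tamoxifen-inducible Cre under the Villin promoter, which is active in intestinal epithelium, and homozygous floxed alleles of Apc, the brake on Wnt signalling whose loss starts most intestinal adenomas. The control group, labelled Apc null, had intact Gata6, and the second group, labelled Gata6 null/Apc null, also had floxed alleles of Gata6, an endodermal transcription factor. Each genotype had 2 arrays, 1 with the batch letter A and 1 with the letter B, all on a C57BL/6 background after 7 days of culture. The labels do not say what a batch is, whether the replicates came from separate mice, or how dense or how oxygenated the cultures were. With 2 arrays per group their number limits the precision, and fewer cells of a kind and less RNA per cell cannot be told apart in bulk RNA.

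Cells sense oxygen through prolyl hydroxylases, the EGLN enzymes, which mark the HIF alpha subunits for destruction while oxygen is present. When oxygen falls, the alpha subunit persists, pairs with ARNT and binds hypoxia response elements near genes for glucose uptake, glycolysis, lactate export, angiogenesis, matrix modification and mitochondrial turnover. Tumour cells also run glycolysis in the presence of oxygen.

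Array medians lay between 4.91 and 5.04 log2 units, and correlations between arrays ran from 0.963 to 0.979 over probe sets without controls. The targeted gene did not check the labels: at the brighter of its probe sets Gata6 read 9.37 and 9.40 in the Gata6 null/Apc null arrays and 8.89 and 8.61 in the Apc null arrays, and whether this probe set lies within the deletion is unknown here. Directions between genotypes therefore rest on the labels. Of 9 epithelial markers, 8 read 7.29 or more on every array, with Epcam at 11.29 to 11.53 and Cdh1 at 9.90 to 10.19, and Krt20, a keratin of differentiated cells, read 4.79 to 5.96. Their summed level was 14.08 and 13.87 log2 units in the Apc null and Gata6 null/Apc null arrays of batch A and 13.98 and 13.82 in those of batch B. The CDX genes, which encode intestinal transcription factors, varied more. Cdx1 was lower in batch B, at 10.36 and 9.89 in batch A and 9.39 and 9.40 in batch B (limma adjusted p = 0.0228). Cdx2 was lower in Gata6 null/Apc null with the batch as a block (limma adjusted p = 0.00545, and 0.228 without it), with 9.13 and 7.29 in batch A and 9.41 and 8.11 in batch B, so that it too was lowest on the batch A Gata6 null/Apc null array. Of 8 fibroblast markers, none exceeded 5.04 on any array. Of 6 endothelial markers none exceeded 6.04, and their summed level was 7.08 and 7.09 in batch A and 7.11 and 7.26 in batch B. The highest of them, Vwf, read 5.14 and 5.08 in batch A and 5.49 and 6.04 in batch B, so its batches did not overlap, but it missed the threshold (limma adjusted p = 0.0851), while Cdh5 lay between 4.45 and 4.62. The general leukocyte marker Ptprc stayed between 3.07 and 3.25. Of the immune markers, 1 moved with batch: Cd68, a lysosomal glycoprotein best known from macrophages, read 5.92 and 4.94 in batch A against 7.56 and 7.23 in batch B (limma adjusted p = 0.0115). The summed level of the 8 immune markers was 7.75 and 7.45 log2 units in batch A and 8.42 and 8.16 in batch B, while Ptprc, which marks all leukocytes, stayed under the filter level. The part of these marker differences in the differences of hypoxia and glycolysis genes was not tested. The signal of the control probe sets for the 3' and 5' ends of the Gapdh transcript differed by -0.06 to 0.01 on the 4 arrays.

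Hypoxia and glycolysis genes separated the arrays by batch. Both batch B arrays were above both batch A arrays for 29 of the 30 genes tested, a pattern found in 21.0% of all genes tested. None of the 30 showed the opposite pattern, which held for 33.1% of all genes. In a fit with batch and genotype as terms, 23 of the 30 were higher in batch B past an adjusted p of 0.05 (limma, Benjamini-Hochberg over all genes), against a background of 7.53% of genes called higher. None was called lower, against 9.12%. Because the list was chosen with earlier results of these data known, these shares describe it and are not an independent test. The adjusted p-values of the 23 ran from 0.00848 to 0.0484. The median difference of batch B minus batch A over the 30 genes was 0.81 log2 units in the Apc null arrays and 1.49 in the Gata6 null/Apc null arrays, against -0.07 and -0.04 over all genes tested. The calls depend on the model. With a spread estimated without its trend on expression level, 9 of the 30 were called, and with genotype left out of the fit, neither these genes nor any other gene passed (limma, 0 of 11874; 20 of the 30 and 2432 of all genes had an unadjusted p under 0.05).

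**Figure D1:**
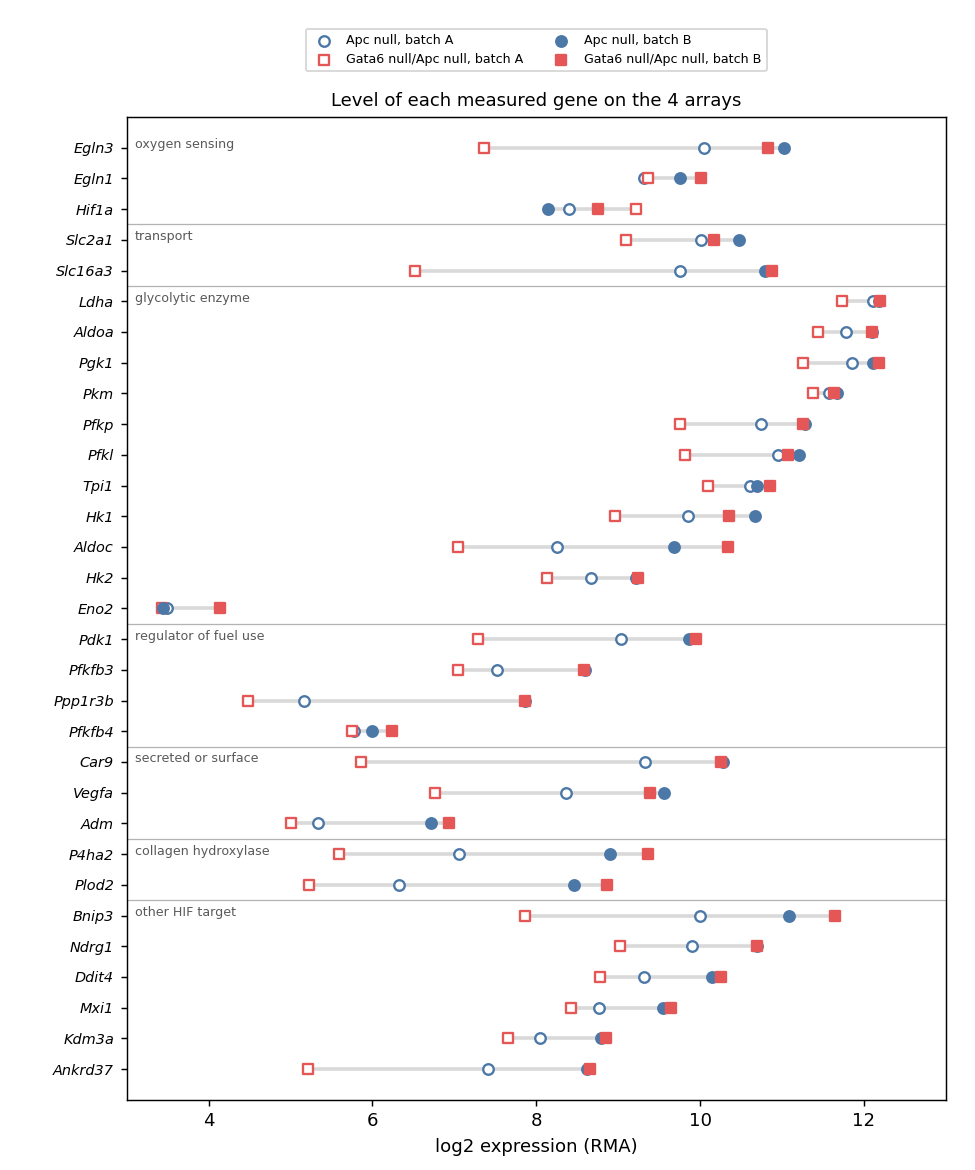
Log2 expression (horizontal axis) of the 31 measured hypoxia and glycolysis genes (rows, grouped by role) on each of the 4 arrays; blue circles are Apc null, red squares Gata6 null/Apc null, open symbols batch A and filled symbols batch B, and grey bars span the 4 values. The open red square, the batch A Gata6 null/Apc null array, is the lowest of the 4 for 28 of the 30 genes tested.

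Within the separation by batch, almost all of these genes had their lowest level on the batch A Gata6 null/Apc null array. It was lowest for 28 of the 30, against 24.2% of all genes tested. In the full order that array was lowest, the Apc null array of batch A was next and both batch B arrays were above. This order held for 28 of the 30 and for 12.2% of all genes. The exceptions were Hif1a and Egln1. These backgrounds partly repeat the batch separation, since with both batch B arrays above, the lowest array must be from batch A. Of the 2490 among all genes with both batch B arrays above, 1449 had the full order, as did 28 of 29 members. Among the 30 genes the largest batch difference in the Gata6 null/Apc null arrays was that of Car9, which encodes a surface carbonic anhydrase that exports acid equivalents and is among the most oxygen-responsive HIF targets. Car9 read 9.33 in the Apc null array and 5.86 in the batch A Gata6 null/Apc null array, and 10.28 and 10.25 in those of batch B. The batch B arrays were thus nearly level, and the gap lay within batch A. Its batch difference was 1.94-fold in Apc null and 21.0-fold in Gata6 null/Apc null organoids. The pooled batch difference was 2.67 (SE 0.71) and missed the threshold (limma adjusted p = 0.0539). It passed without a filter on dim genes (limma adjusted p = 0.0265) and with the filter at the 60th percentile (0.0417). It also passed without probe sets that can match shared sequence (0.0433) and with arrays centred on their medians (3.20e-08). It missed with genotype left out of the fit (limma adjusted p = 0.308), without the trend on expression level and with probe sets averaged. Array medians lay between 4.91 and 5.04, so centring changed the values little. The much smaller value with centring therefore does not reflect a larger difference and is not read as stronger evidence. Slc16a3, the lactate exporter MCT4 of glycolytic cells, had the same shape, with 9.76 and 6.52 in batch A and 10.79 and 10.88 in batch B. It was 2.04-fold higher in batch B in Apc null and 20.6-fold higher in Gata6 null/Apc null organoids (pooled difference 2.69, SE 0.69, limma adjusted p = 0.0484). With all probe sets of each gene averaged it missed the threshold (limma adjusted p = 0.0562). Among all 11874 genes, Car9 and Slc16a3 ranked 2 and 3 by batch increase in the Gata6 null/Apc null arrays, and 383 and 317 in the Apc null arrays.

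Sequence upstream of these genes is shown for the 6 members with a RefSeq promoter and the largest batch difference in Gata6 null/Apc null organoids, because these carry the main pattern. The core of the hypoxia response element was searched as ACGTG and GCGTG on both strands, where CACGT and CACGC are the same cores on the other strand, and a CACGTG palindrome counts on both. Each line gives 60 bases 5' to 3' on the gene's strand, ending at or before the annotated transcription start (RefSeq, mouse GRCm38.p6), with cores in capitals, around the core nearest to the start. The lines were placed on a core, so its presence in them is by choice.
Car9: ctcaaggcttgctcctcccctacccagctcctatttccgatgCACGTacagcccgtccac
Slc16a3: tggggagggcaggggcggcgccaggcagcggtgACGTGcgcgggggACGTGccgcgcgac
Bnip3: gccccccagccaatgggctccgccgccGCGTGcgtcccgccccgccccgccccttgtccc
P4ha2: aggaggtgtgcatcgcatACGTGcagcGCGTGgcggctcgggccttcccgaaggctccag
Egln3: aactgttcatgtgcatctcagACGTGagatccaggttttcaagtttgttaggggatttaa
Ankrd37: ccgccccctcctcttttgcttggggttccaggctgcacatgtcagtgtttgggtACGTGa
The stretches lie at chr4:43506966-43507025 on the plus strand for Car9, chr11:120949007-120949066 on the plus strand for Slc16a3 and chr7:138909509-138909568 on the minus strand for Bnip3. Those of P4ha2, Egln3 and Ankrd37 lie at chr11:54100828-54100887 (plus strand), chr12:54204065-54204124 (minus strand) and chr8:45999851-45999910 (minus strand). The nearest core began 18 bases before the start of Car9, 14 before that of Slc16a3 and 6 before that of Ankrd37. In Egln3 the single core of the 250 upstream bases lay 229 bases before the annotated start.

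Promoters were found for 32 of the 35 genes, in 47 windows from 250 bases before to 50 after a start, since some genes have several starts. ACGTG occurred in 53.2% of these windows and in 19.6% of all 32851 promoter windows of the table. GCGTG occurred in 51.1% and in 32.4%. The tested genes are a closer comparison, since their promoters have a median GC content of 60.3%, near the 63.3% of the listed genes, against 52.7% for the whole table. In windows of tested genes ACGTG occurred in 25.0% overall and in 57.5% of the 40 windows of hypoxia and glycolysis genes, while GCGTG occurred in 48.5% and 47.5%. Ldha, the lactate dehydrogenase subunit that favours lactate formation, had a window with 5 matches to ACGTG. Eno2, Gpi1 and Tpi1 had neither core. These matches describe letters in a window and not sites of binding.

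Both EGLN genes on the list were higher in batch B, by different amounts. Egln3, a HIF prolyl hydroxylase that is itself a HIF target, read 10.05 in the Apc null and 7.36 in the batch A Gata6 null/Apc null array, and 11.02 and 10.83 in batch B. The batch A Gata6 null/Apc null array thus stood far below the other 3, and the pooled batch difference was 2.23 (SE 0.52, limma adjusted p = 0.0390). Its other probe set ran from 5.02 on that array to 10.01 in the Apc null array of batch B. Egln1, the main oxygen sensor of most cells, differed less, with 9.32 and 9.37 in batch A and 9.76 and 10.01 in batch B. Its batch difference of 0.54 (SE 0.10) passed (limma adjusted p = 0.0242), and here the genotypes of batch A were level at the brighter probe set, while the other probe set read 8.40 and 8.16 in batch A.

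Hif1a, the oxygen-regulated alpha subunit, was the gene of the 30 in which the batches overlapped. It read 8.40 in the Apc null and 9.22 in the batch A Gata6 null/Apc null array, and 8.14 and 8.75 in batch B. The Gata6 null/Apc null arrays were the higher in both batches, so the genotype groups did not overlap, which was the case in this direction for 14.7% of all genes. The opposite direction, found for 17.3% of all genes, was shown by none of the 30. Hif1a did not pass without the batch block (difference 0.72, SE 0.25, limma adjusted p = 0.557) but passed with it (limma adjusted p = 0.0285). Its batch difference was -0.36 (SE 0.13, limma adjusted p = 0.107), opposite in sign to the other 29 genes. The other Hif1a probe set was dimmer, at 4.28 and 4.37 in batch A and 6.01 and 5.66 in batch B, and did not follow this pattern, so the values at 8.14 to 9.22 rest on 1 probe set. HIF alpha protein is controlled mainly by its breakdown, and the arrays measured RNA only.

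Both transporter genes and 3 of the 4 genes for the kinases of upper glycolysis were higher in batch B. Slc2a1, the basal glucose transporter GLUT1, read 10.01 and 9.10 in batch A and 10.48 and 10.17 in batch B, and its batch difference was 0.77 (SE 0.15, limma adjusted p = 0.0262). Hk1 and Hk2, the hexokinases that trap glucose in the cell, were higher by 1.10 (SE 0.14) and 0.83 (SE 0.16). For Hk1 the arrays read 9.85 and 8.96 in batch A and 10.67 and 10.35 in batch B, and both of its probe sets had this order. The platelet-type phosphofructokinase Pfkp, at 10.74 and 9.75 in batch A and 11.28 and 11.26 in batch B, was higher by 1.03 (SE 0.21, limma adjusted p = 0.0291). Pfkl, the liver-type enzyme of the same committed step, read 10.95 and 9.82 in batch A and 11.21 and 11.07 in batch B. Its Apc null array of batch A was close to batch B, and the difference of 0.76 (SE 0.21) missed the threshold (limma adjusted p = 0.0622). It passed without a filter on dim genes (limma adjusted p = 0.0344), with the filter at the 60th percentile (0.0485) and with arrays centred on their medians (0.00115). It missed with genotype left out of the fit (limma adjusted p = 0.363) and without the trend on expression level. It also missed with probe sets averaged and without those that can match shared sequence. The value with centring has the same limit as that of Car9.

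Apart from Aldoc, the genes tested from aldolase to lactate dehydrogenase were bright, with pooled batch differences of 0.59 or less. Aldoa, the main aldolase, read 11.78 and 11.44 in batch A and 12.10 and 12.10 in batch B, and was higher by 0.50 (SE 0.09, limma adjusted p = 0.0201). Pgk1, the phosphoglycerate kinase that yields the first ATP of the pathway, was at 11.85 and 11.26 in batch A and 12.11 and 12.18 in batch B (difference 0.59, SE 0.15, limma adjusted p = 0.0449). Of these enzymes, 3 did not pass. Tpi1, triosephosphate isomerase, differed by 0.42 (adjusted p = 0.113), Ldha by 0.27 (0.103) and the pyruvate kinase gene Pkm by 0.17 (0.124). Ldha read 12.11 and 11.73 in batch A and 12.18 and 12.20 in batch B, and Pkm 11.58 and 11.38 against 11.67 and 11.63. In all 3 the batch A Gata6 null/Apc null array was still the lowest. Aldoa, Pgk1, Ldha and Pkm lie near the top of the scale, where the brightest probe set of an array read 12.72 to 12.82, and the part of signal saturation in their small differences was not tested. The chosen probe sets of Aldoa, Tpi1 and Ndrg1 can match shared sequence, and glycolytic genes have many near-identical pseudogenes, so their levels are less certain. Aldoc, the brain-type aldolase, behaved differently from Aldoa. It read 8.25 and 7.05 in batch A and 9.68 and 10.34 in batch B, higher by 1.43 in Apc null and 3.29 in Gata6 null/Apc null organoids (pooled 2.36, SE 0.40, limma adjusted p = 0.0186).

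Regulators that steer carbon between glycolysis, mitochondria and glycogen were higher in batch B in 3 of 4 genes. Ppp1r3b, a subunit that brings protein phosphatase to glycogen and favours its synthesis, read 5.17 and 4.48 in batch A and 7.86 and 7.86 in batch B. The batch groups were far apart in both genotypes, 6.48-fold in Apc null and 10.4-fold in Gata6 null/Apc null, and its pooled difference of 3.04 (SE 0.23) had the smallest adjusted p of the 30 (limma, 0.00848). Pdk1, the kinase that shuts pyruvate out of the mitochondrial citrate cycle, read 9.03 and 7.29 in batch A and 9.87 and 9.95 in batch B (difference 1.75, SE 0.39, limma adjusted p = 0.0343). Its 3 probe sets had this order of batches. Pfkfb3, which makes the activator of phosphofructokinase, was at 7.52 and 7.04 in batch A and 8.60 and 8.58 in batch B, higher by 1.31 (SE 0.17, limma adjusted p = 0.0129). Pfkfb4, of the same family, read 5.77, 5.75, 6.00 and 6.24 in the same order of arrays and did not pass (0.36, adjusted p = 0.235).

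Both secreted signals and both measured collagen hydroxylases were higher in batch B. Vegfa, the endothelial growth factor, read 8.36 and 6.76 in batch A and 9.56 and 9.39 in batch B, higher by 2.29-fold in Apc null and 6.15-fold in Gata6 null/Apc null organoids (limma adjusted p = 0.0182). Adm, the vasodilator peptide adrenomedullin, was at 5.34 and 5.01 against 6.71 and 6.93 (difference 1.64, SE 0.21, limma adjusted p = 0.0126). P4ha2, a catalytic subunit of collagen prolyl hydroxylase, read 7.06 and 5.59 in batch A and 8.90 and 9.36 in batch B, 3.59-fold and 13.6-fold higher in Apc null and Gata6 null/Apc null organoids. Plod2, the lysyl hydroxylase that sets collagen cross-links, read 6.32 and 5.22 in batch A and 8.46 and 8.86 in batch B, 4.40-fold and 12.5-fold higher. Both passed, with pooled differences of 2.80 (SE 0.42, limma adjusted p = 0.0153) and 2.89 (SE 0.35, limma adjusted p = 0.0117). Plod2 and P4ha2 had large batch differences in both genotypes, whereas those of Car9 and Slc16a3 lay mostly in Gata6 null/Apc null.

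All 6 remaining HIF targets were higher in batch B. Bnip3, a mitochondrial receptor that marks mitochondria for removal, read 10.00 and 7.86 in batch A and 11.08 and 11.65 in batch B (difference 2.43, SE 0.56, limma adjusted p = 0.0380). Its batch B arrays were reversed in order relative to batch A, with the Gata6 null/Apc null array higher by 0.56. Ankrd37, an ankyrin repeat protein, was at 7.41 and 5.21 in batch A and 8.62 and 8.66 in batch B, a pooled difference of 2.33 (SE 0.48, limma adjusted p = 0.0299). The other 4 had smaller, more even differences. Ndrg1, a stress-responsive gene of differentiating epithelium, read 9.90 and 9.02 in batch A and 10.70 on both arrays of batch B. Ddit4, the mTORC1 inhibitor REDD1, was at 9.32 and 8.78 against 10.15 and 10.25. The MYC antagonist gene Mxi1 read 8.77 and 8.43 against 9.55 and 9.64, and Kdm3a, an oxygen-dependent histone demethylase, 8.04 and 7.66 against 8.79 and 8.85. Their pooled differences were 1.24, 1.15, 1.00 and 0.97, with limma adjusted p-values of 0.0140 to 0.0177.

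**Figure D2:**
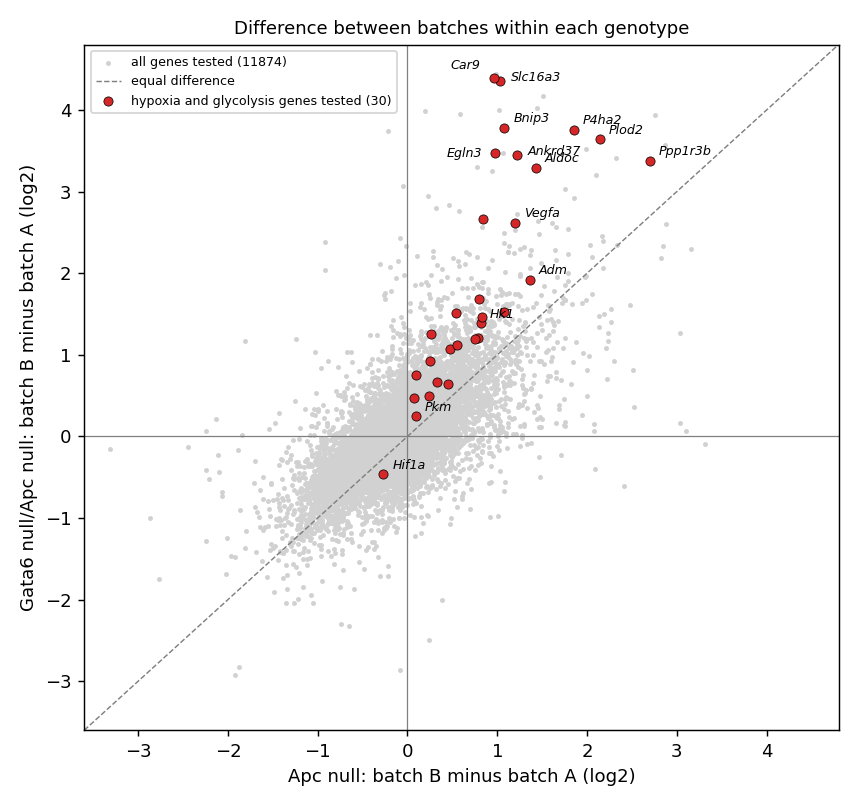
Batch B minus batch A in log2 units in Apc null organoids (horizontal axis) and in Gata6 null/Apc null organoids (vertical axis), for all 11874 genes tested (grey) and the 30 hypoxia and glycolysis genes tested (red); the dashed line marks equal differences. The axes share no array, and 29 of the 30 genes lie above 0 on both axes and above the dashed line.

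Batch differences were the larger in Gata6 null/Apc null organoids for 29 of the 30 genes, against 58.0% of all genes tested. In the Apc null arrays 10 of the 30 were higher by 1 log2 unit or more in batch B, and in the Gata6 null/Apc null arrays 22 were. Of all 11874 genes tested, 338 were higher by at least 1 in batch B in the Apc null arrays, and 562 in the Gata6 null/Apc null arrays. Of the 50 genes with the largest batch increase in Gata6 null/Apc null organoids, 11 were hypoxia and glycolysis genes. Of the 50 in Apc null organoids, 2 were. The 30 members are 30 of the 11874 genes ranked. The comparison of these differences between genotypes rests on 1 array per cell of the design, with no residual degree of freedom, and was not tested.

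The comparison of genotypes asks which genes depend on GATA6 in adenoma cells. Pooled over batches it called none of the 30 genes in either direction, with backgrounds of 0.522% of genes called higher and 0.126% called lower (limma, adjusted p of 0.557 to 1.00; 1 of the 30, Hif1a, and 946 of all genes had an unadjusted p under 0.05). With the batch as a block, Hif1a was called higher, against 3.91% of all genes, and none was called lower, against 2.97%. The pooled median over the 30 genes was -0.30 log2 units, against -0.03 over all genes. It was not the same in the separate batches. In batch A the median of Gata6 null/Apc null minus Apc null was -0.78, with 28 of the 30 below 0 and 11 lower by at least 1 log2 unit. In batch B it was 0.05, with 9 below 0, 21 above 0 and none at 1 log2 unit or beyond. Over all 11874 genes the medians were -0.05 and -0.01. In batch A, 6843 of all genes were below 0 and 372 were lower by at least 1 log2 unit. In batch B, 48.5% of all genes were above 0, and 5.51% differed by 1 log2 unit or more in either direction. None among 30 is therefore near the batch B background.

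The genotype difference in batch A was -3.46 for Car9 and -3.24 for Slc16a3, and in batch B it was -0.03 and 0.09. Egln3 differed by -2.69 and -0.19, Ankrd37 by -2.20 and 0.03, Pdk1 by -1.74 and 0.08 and Vegfa by -1.60 and -0.17. In batch B, 23 of the 30 genes differed between genotypes by no more than 0.25 log2 units, as did 59.4% of all genes. In batch A, 3 of the 30 did, against 60.1% of all genes. All 9 genes below 0 in batch B were also below 0 in batch A. Among them Slc2a1 and Hk1 had the largest drops in batch B, with differences of -0.91 and -0.31 for Slc2a1 and -0.89 and -0.32 for Hk1. Neither passed with the batch as a block (limma adjusted p = 0.0779 and 0.0696). The genotype differences within batch A and the batch differences within Gata6 null/Apc null organoids share the batch A Gata6 null/Apc null array, so they are not independent of each other. Without that array, the pooled median of the 30 genes was 0.44 in place of -0.30, and 24 of the 30 genes changed sign. That fit has no batch term and sets the batch B Gata6 null/Apc null array against Apc null arrays of both batches, so these values contain part of the batch difference, whereas the pair within batch B gave the median of 0.05.

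**Figure D3:**
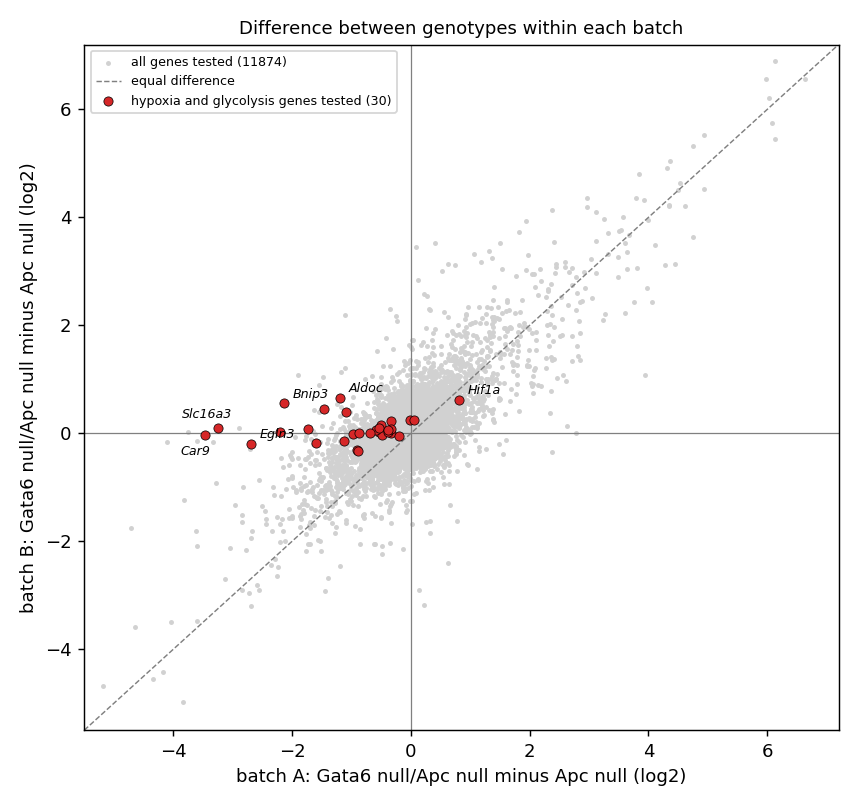
Gata6 null/Apc null minus Apc null in log2 units in batch A (horizontal axis) and in batch B (vertical axis), for all 11874 genes tested (grey) and the 30 hypoxia and glycolysis genes tested (red); the dashed line marks equal differences. In batch B the red points lie between -0.32 and 0.66, while in batch A they reach -3.46.

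Other genes of the pathway were read from lists that the members do not belong to. Of 26 further HIF target genes tested, 10 were higher in batch B and 1 was lower past the threshold. The backgrounds over all genes tested were 7.53% called higher and 9.12% called lower. The median batch differences of the 26 genes were 0.29 in Apc null and 1.08 in Gata6 null/Apc null organoids. The circadian repressor gene Bhlhe40 read 9.30 and 8.76 in batch A and 10.36 and 10.54 in batch B (limma adjusted p = 0.0118). The carbonic anhydrase gene Car12, the lipoprotein receptor gene Vldlr and the glycogen synthase gene Gys1 were higher by 1.46, 1.61 and 1.14 (limma adjusted p = 0.0131, 0.0132 and 0.0183). Ak4, a mitochondrial adenylate kinase picked after its values were seen, had the shape of Car9, with 8.85 and 5.96 in batch A and 9.87 and 9.97 in batch B (limma adjusted p = 0.0450). The Ak4 probe set can match shared sequence. With the batch as a block, 3 of the 26 were lower in Gata6 null/Apc null, against 2.97% of all genes: Tfrc, the transferrin receptor, Car12 and the lysyl oxidase relative Loxl4 (limma adjusted p = 0.0294, 0.0315 and 0.0336). Without the block none of these 3 passed (0.565, 1.00 and 0.296). The gene called lower in batch B was Edn1, the vasoconstrictor endothelin, at 8.54 and 7.70 in batch A and 7.55 and 6.95 in batch B.

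Among 10 HIF regulators tested, 3 were higher in batch B, against 7.53% of all genes, and none lower, against 9.12%. They were Hif3a (6.63 and 6.50 against 8.19 and 8.11), Epas1, which encodes HIF-2 alpha (5.57 and 5.67 against 6.91 and 6.87), and the partner subunit Arnt (7.27 and 7.00 against 8.00 and 7.88). Their limma adjusted p-values were 0.0115, 0.0149 and 0.0272, and the Hif3a probe set can match shared sequence. In these 3 the genotype differences within a batch lay between -0.27 and 0.10. Among those that did not pass and are named for their roles, Vhl, the ubiquitin ligase subunit that recognises hydroxylated HIF, differed between batches by -0.04 (adjusted p = 0.896), and Hif1an, the asparagine hydroxylase that blocks HIF activity, by -0.05 (adjusted p = 0.784).

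**Figure D4:**
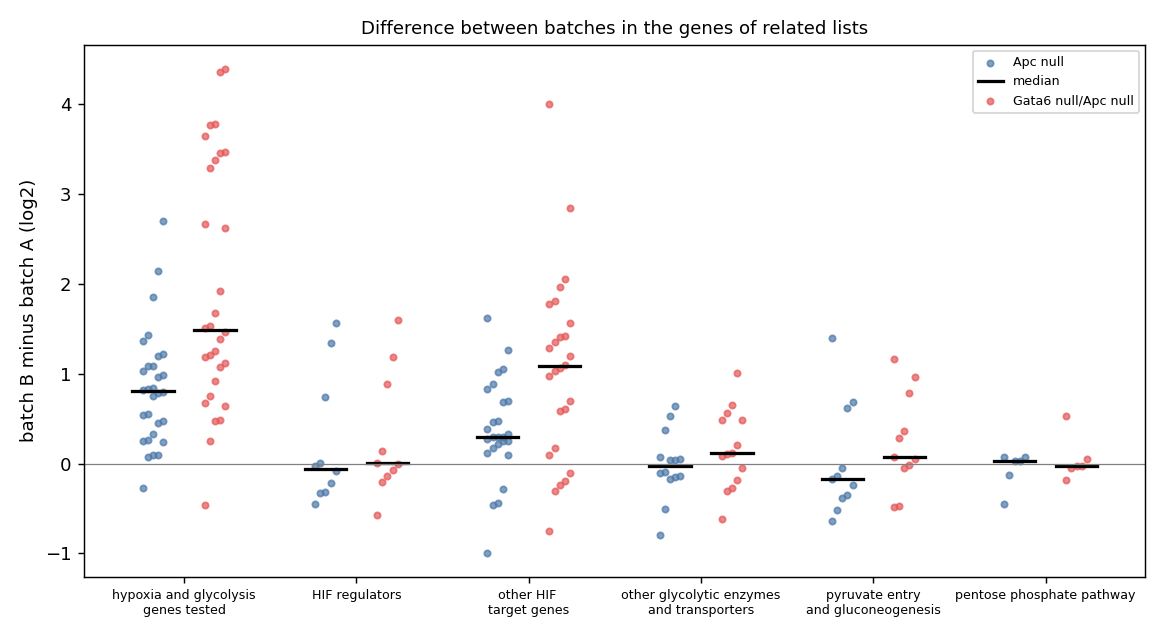
Batch B minus batch A in log2 units (vertical axis) for the 30 hypoxia and glycolysis genes tested and for the tested genes of 5 related lists, in Apc null (blue) and Gata6 null/Apc null organoids (red); each point is a gene and black bars are medians. The medians of the hypoxia and glycolysis genes are 0.81 and 1.49 and those of further HIF targets 0.29 and 1.08, while those of the other 4 lists lie between -0.17 and 0.12.

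Of 14 further glycolytic isozymes and transporters tested, 2 were higher in batch B past the threshold, with 7.53% of all genes as background, and the median batch differences were -0.03 in Apc null and 0.12 in Gata6 null/Apc null organoids. The genes that passed were the muscle-type phosphofructokinase Pfkm by 0.83 (limma adjusted p = 0.0260) and Pfkfb2 by 0.51 (0.0275). Gapdh, which did not pass and is given as a widely used reference gene, read 12.28 to 12.41 on the 4 arrays. In this list 1 gene was called between genotypes, higher in Gata6 null/Apc null, against 0.522% of all genes. Ldhb, the lactate dehydrogenase subunit that favours the conversion of lactate to pyruvate, read 7.29 and 7.34 in the Apc null arrays and 10.41 and 10.90 in the Gata6 null/Apc null arrays of batches A and B (limma adjusted p = 0.0198). Its batch difference was 0.27 (adjusted p = 0.245), so it showed a genotype difference in both batches where Ldha showed none past the threshold. Of 11 genes of pyruvate entry and gluconeogenesis, 3 were higher in batch B and 1 lower, against 7.53% and 9.12% of all genes. The count called lower is thus near its background. Pdk2, a further kinase that restrains pyruvate oxidation, was higher by 1.28 (limma adjusted p = 0.0115), Pck2 by 0.70 (0.0174) and the pyruvate carboxylase gene Pcx by 0.82 (0.0271). Fbp2, a fructose bisphosphatase, differed by -0.56 (0.0174). With the batch as a block, 2 of the 11 were higher in Gata6 null/Apc null, against 3.91% of all genes. Pdp2, a phosphatase that reactivates pyruvate dehydrogenase, read 8.28 and 8.99 in batch A and 8.22 and 9.27 in batch B (limma adjusted p = 0.0185 with the block and 0.270 without). Pdk2 read 7.28 and 8.08 in batch A and 8.68 and 9.24 in batch B (limma adjusted p = 0.0440 with the block and 1.00 without). None of 6 pentose phosphate genes was called by batch. With the block, 2 of the 6 were lower in Gata6 null/Apc null, against 2.97% of all genes, but without it neither was. Rpia read 10.09 and 9.64 in Apc null and 9.07 and 8.89 in Gata6 null/Apc null (limma adjusted p = 0.00997 with the block and 0.303 without). Pgd read 11.26 and 11.32 in Apc null and 10.91 and 10.87 in Gata6 null/Apc null (limma adjusted p = 0.0233 and 0.248). The Pgd probe set can match shared sequence.

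Where a gene had several probe sets, the chosen probe set was compared with the others. Of the measured genes, 16 had more than 1 probe set, and all 20 of the other probe sets were above the filter level. The sign of the batch difference matched that of the chosen probe set in 19 of 20 in each genotype, the exception being Hif1a. The sign of the genotype difference in batch A matched in 19 of 20, the exception being Egln1. The second Vegfa probe set read 6.25 and 4.36 in batch A and 7.72 and 7.76 in batch B, and the second Plod2 probe set 4.98 and 4.71 against 7.23 and 7.97.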

How the data were processed

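RNA of 4 organoid samples was measured on Affymetrix mouse arrays with 45141 probe sets. Values were deposited on the log2 scale, 1 per probe set. RMA and the affy package produced them, per the submitters' processing notes, and the sources used here give no versions. This method includes quantile normalization, so array-wide shifts are removed and low values lie near a floor. After 104 controls were left out, 28898 probe sets named 1 gene in the platform annotation, 551 named several and 15588 none. Symbols were compared by Entrez identifier with RefSeq names (GRCm38.p6) for 28689 probe sets, and 0 changed.

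Dim genes, whose mean lay below the 40th percentile of probe sets, were left out. Differences were tested with limma 3.58.1 in R 4.3.3 (lmFit, eBayes with a mean-variance trend, Benjamini-Hochberg, threshold 0.05). The genotype fit had genotype as its single term and 2 residual degrees of freedom. The batch fit had batch and genotype as terms and 1 residual degree of freedom. The shared letter makes the arrays of a batch a pair: batch differences of both genotypes correlated at 0.675 across genes. The fits were tested on simulated data, where the batch fit made false calls at more than its nominal rate and the genotype fit without the block missed the smallest changes simulated and most of the next size, so 0 calls there do not show that values did not differ. Adjusted p-values are two-sided, SE is from the moderated fit, and replicates may not be separate mice, so p-values may measure technical spread. The members, the lists and the tests were chosen with earlier results of these data known. All members are named, with up to 4 called genes of each pathway list by smallest p, or 2 where none was called. Further genes were named after their values were seen: those called with the block, the single gene called lower among HIF targets, Ak4, Rora, Plod1, Vhl, Hif1an, Gapdh and the cell type markers. Alternatives changed the block, trend, filter, probe sets, centring and arrays used. All sample columns were used, leaving 0 aside.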

Additional observations from a re-analysis of the deposited data

Results flagged for a closer look

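In 2 genes the genotype difference had opposite signs in the batches, with at least 0.5 log2 units in each. Aldoc, the brain-type aldolase, was lower in Gata6 null/Apc null organoids in batch A (-1.20) and higher in batch B (0.66), 1.86 apart. Bnip3, the mitochondrial receptor, had values of -2.14 and 0.56, and differed between batches by 2.70. Each value rests on 2 arrays, and the difference between the batches was not tested.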

How the results depend on the processing

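All values here come from limma. The batch calls depend on how the spread is modelled: without a trend in the moderation 412 genes were higher and 461 lower in batch B, with 9 of the 30 hypoxia and glycolysis genes, and without the replicate block 0, 0 and 0; the cause was not tested. The filter, probe set and centring alternatives gave 22 to 25 of the 30, or of 28 in the setting without probe sets that can match shared sequence. Aldoa and Ndrg1 had no probe set left in that setting. For genotype, the replicate block gave 464 genes higher and 353 lower with 1 of the 30, Hif1a, and changed no other call among the 30. Centring each array on its median gave 103 higher and 25 lower. With all probe sets of a gene averaged, the batch difference of Hif1a was 0.57 in place of -0.36, since its dimmer probe set has the opposite sign. When 1 array was left out, 24 to 118 genes were higher and 9 to 12 lower in Gata6 null/Apc null, and the median of the 30 ran from -1.20 to 0.44; these fits have no batch term and so contain part of the batch difference. A lone remaining array is assumed to vary like the other group. For batch, leaving out an array leaves the difference of the other genotype, with no test, and its median was 0.81 or 1.49. The genotype differences whose sign turned when 1 array was left out had these ranges. They were Slc16a3 -3.76 to 0.60, Hk1 -1.30 to 0.09, Hk2 -0.82 to 0.30, Pfkp -1.25 to 0.25, Pfkfb3 -1.02 to 0.52, Pfkfb4 -0.13 to 0.35, Aldoa -0.50 to 0.17, Aldoc -1.91 to 1.37, Tpi1 -0.55 to 0.19. Next were Pgk1 -0.72 to 0.20, Ldha -0.42 to 0.05, Pdk1 -2.16 to 0.50, Vegfa -2.20 to 0.43, Ankrd37 -2.81 to 0.64, Bnip3 -2.68 to 1.10, Egln1 -0.17 to 0.47, Egln3 -3.18 to 0.30, P4ha2 -2.39 to 1.38. The rest were Plod2 -2.17 to 1.47, Car9 -3.94 to 0.45, Ndrg1 -1.28 to 0.40, Adm -1.01 to 0.91, Ddit4 -0.95 to 0.51, Mxi1 -0.73 to 0.48, Kdm3a -0.75 to 0.44, Ppp1r3b -2.03 to 1.35. No detection calls were used, so signal over background limits the dim genes.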

Other observations

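In 2 HIF target genes outside the listed members, picked after their values were seen, the array that stood apart was the batch B Gata6 null/Apc null one and not its batch A counterpart. Rora, a nuclear receptor, read 8.59 there and at most 5.75 on the other 3 arrays, and Plod1, a lysyl hydroxylase related to Plod2, read 7.64 there and at most 5.99 on the others. Neither passed the batch fit (limma adjusted p = 0.0812 and 0.0837). Eno2, too dim to be tested, was also highest on that array, at 4.14.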
